A study of Mus musculus with 18 samples.

Results

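The subject is 10 genes of the circadian clock, Arntl, Clock, Per1, Per2, Per3, Cry1, Nr1d1, Nr1d2, Dbp and Tef, chosen by gene symbol from the 24346 symbols measured in septic mice with or without hydrogen in their breathing air. All 10 symbols were found, each once. RNA of liver, intestine and lung was sequenced from male C57BL/6 mice, 9 weeks old, which had all undergone cecal ligation and puncture, an operation that lets gut bacteria leak into the abdomen and causes sepsis. H2 mice breathed 7% hydrogen from the end of surgery and shared 1 cage inside a gas box, so that cage and gas cannot be told apart. Control mice had the same operation and no hydrogen. Organs were collected 24 h after the operation, in 6 groups of n = 3 (H2 and control in each of 3 organs) and 18 libraries in all. The labels give no lighting schedule, no hour of surgery or of sampling, and no link between organs and mice, and nothing says that libraries of a group came from separate animals. With 1 sampling time, the level of a clock gene can be compared between organs and treatments, but its phase cannot be measured. Mice with a sham operation are not analysed here.

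The clock is a feedback loop of transcription that runs in nearly every cell. The proteins of Arntl (also called Bmal1) and Clock pair up, bind E-box elements and switch on the Per and Cry genes, whose proteins return to the nucleus and block the pair. The same pair drives Nr1d1 and Nr1d2 (REV-ERB alpha and beta), nuclear receptors that bind ROR elements and repress Arntl, and it drives Dbp, which with its relative Tef acts on D-box elements of output genes. In a running clock Arntl transcripts peak in antiphase to those of Dbp and Nr1d1, while Clock transcripts cycle little in many tissues.

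The elements named above can be read in the members' own promoters, and the windows that hold one are shown because these are the letters that factors of the loop are known to bind. RefSeq start sites (build GRCm38.p6) matched 9 of the 10 members, with 14 windows from 250 bases before to 50 bases after a start. CACGTG, the E-box, was searched, as were the D-box spellings TTATGTAA and TTATGCAA, the ROR element (RORE), and the cAMP element TGACGTCA, each on both strands. CACGTG stood in windows of 3 members (Per1, Cry1 and Tef), a D-box spelling in those of 2 members (Per1 and Per3), the ROR element in 1 (Arntl) and TGACGTCA in 0. These counts are of members with a match in any window. By single window, 4 of the 14 held CACGTG and 1 held the ROR element. Of 32544 windows of all genes, 7.17% held CACGTG, 0.931% TTATGTAA, 0.75% TTATGCAA, 0.384% the ROR element and 1.8% TGACGTCA. Below, capitals mark the matches. The windows are Arntl on chr7:113207261-113207560 (plus strand), Per1 on chr11:69098699-69098998 (plus strand), Per3 on chr4:151044616-151044915 (minus strand), Cry1 on chr10:85185005-85185304 (minus strand) and Tef on chr15:81802423-81802722 (plus strand). The Arntl match begins at base 26 after the start. In Per1 the E-box begins at -166 and TTATGCAA at -24, in Per3 the D-box spelling begins at -205 and again at -158, in Cry1 the E-box begins at -60, and in Tef at -127.
Arntl: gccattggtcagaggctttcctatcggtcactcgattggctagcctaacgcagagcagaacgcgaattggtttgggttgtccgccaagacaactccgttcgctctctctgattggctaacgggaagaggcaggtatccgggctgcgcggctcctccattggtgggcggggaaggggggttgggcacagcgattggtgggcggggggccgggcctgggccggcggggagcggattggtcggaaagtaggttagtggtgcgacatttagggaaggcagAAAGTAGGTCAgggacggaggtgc
Per1: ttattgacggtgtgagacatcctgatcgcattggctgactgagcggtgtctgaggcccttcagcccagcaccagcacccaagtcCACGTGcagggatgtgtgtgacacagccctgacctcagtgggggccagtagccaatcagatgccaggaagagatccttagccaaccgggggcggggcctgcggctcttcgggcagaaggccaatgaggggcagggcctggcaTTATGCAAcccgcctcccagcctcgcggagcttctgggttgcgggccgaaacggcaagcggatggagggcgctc
Per3: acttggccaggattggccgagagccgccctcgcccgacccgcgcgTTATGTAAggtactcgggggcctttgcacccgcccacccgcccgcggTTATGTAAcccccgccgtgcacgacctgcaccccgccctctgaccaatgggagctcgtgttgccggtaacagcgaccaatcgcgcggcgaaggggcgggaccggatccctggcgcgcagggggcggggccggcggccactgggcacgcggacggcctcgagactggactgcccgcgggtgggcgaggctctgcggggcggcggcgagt
Cry1: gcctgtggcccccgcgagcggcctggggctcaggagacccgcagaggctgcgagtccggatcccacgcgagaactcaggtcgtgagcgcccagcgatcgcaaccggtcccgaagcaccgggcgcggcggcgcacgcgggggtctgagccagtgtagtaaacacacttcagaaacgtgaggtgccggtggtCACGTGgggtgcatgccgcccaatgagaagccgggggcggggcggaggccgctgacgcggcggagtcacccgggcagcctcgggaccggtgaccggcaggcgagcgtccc
Tef: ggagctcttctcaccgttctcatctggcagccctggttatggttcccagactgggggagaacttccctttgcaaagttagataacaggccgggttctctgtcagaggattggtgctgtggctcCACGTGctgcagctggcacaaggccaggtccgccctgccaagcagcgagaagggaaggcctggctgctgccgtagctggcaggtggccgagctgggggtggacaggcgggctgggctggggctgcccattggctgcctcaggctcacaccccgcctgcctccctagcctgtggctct
A second Tef window, at a start further into the gene, also held CACGTG. The windows of Clock, Nr1d1, Nr1d2 and Dbp held none of these spellings, which says only that the letters are not in these windows. A match is a string of letters, and binding was not measured.

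Levels are in FPKM (fragments per kilobase of a transcript, scaled to the mapped fragments of a library), and changes are log2 differences on FPKM + 1, which understate the change of low genes. Each library held the marker of its labelled organ: Alb, the hepatocyte albumin, was at least 9335 FPKM in the liver and at most 5.95 FPKM in the other organs, the enterocyte gene Vil1 at least 332 and at most 0.450 FPKM, and the surfactant gene Sftpc of the lung at least 20779 and at most 1.17 FPKM. The depth implied by FPKM near 1 fragment ran between 8.73 and 16.1 M fragments a library, and H2 lungs had 13.8, 16.1 and 15.6 M against 10.4, 13 and 12.2 M in control lungs. FPKM summed to 1142966 in H2 intestine 2, against 712858 to 850609 in the other intestine libraries. Single control libraries weighed heavily on what was called. With all libraries limma (adjusted p under 0.05, Benjamini-Hochberg over all tested genes) called 2 of 10041 genes between H2 and control livers, and 2834 of 10057 without control liver 2. In the lung it called 1 of 13424 genes, and 3295 without control lung 3. Results that hang on these libraries are given with and without them.

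No clock gene that could be tested passed between H2 and control mice in any organ, in the mean of the 3 organs, or in the differences between organs. A gene was tested in an organ where its mean reached 1 FPKM, which held for 7 members in the liver (not Per3, Nr1d1 or Dbp), 8 in the intestine (not Per3 or Dbp) and all 10 in the lung. Limma called 0 of the 7 in the liver, where 0.0199% of all tested genes were called, 0 of the 8 in the intestine (0.0084%) and 0 of the 10 in the lung (0.00745%). For the mean change over the organs, fitted on all 18 libraries, it called 0 of 10 against 9.62% of all tested genes. For the differences in change it called 0 of 10 in liver minus lung (0.239%), in liver minus intestine (0.217%) and in intestine minus lung (1.24%). At an unadjusted p under 0.05 the members numbered 1 of 7 in the liver (21% of all genes), 0 of 8 in the intestine (12.5%), 2 of 10 in the lung (23.1%) and 4 of 10 in the mean (30.7%). In the differences they numbered 1 of 10 (12.3%), 0 of 10 (15.5%) and 1 of 10 (19.7%), in both cases Per3, whose levels outside the lung were too low for such a difference to be read. The median log2 change of the tested members was -0.18 in liver, -0.06 in intestine and 0.25 in lung, and that of all tested genes -0.02, 0.02 and -0.00358. H2 and control libraries did not overlap for Per1 in the liver, with H2 lower (13.1% of all tested genes there), and for Clock and Per3 in the lung, with H2 higher (14.1%). In the intestine they overlapped for all members, while 19.3% of all tested genes did not overlap in either direction. Exact permutation of the labels of 1 gene gives a smallest p of 0.1 at this group size. The plot of all 10 genes by library shows these overlaps.

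**Figure D1:**
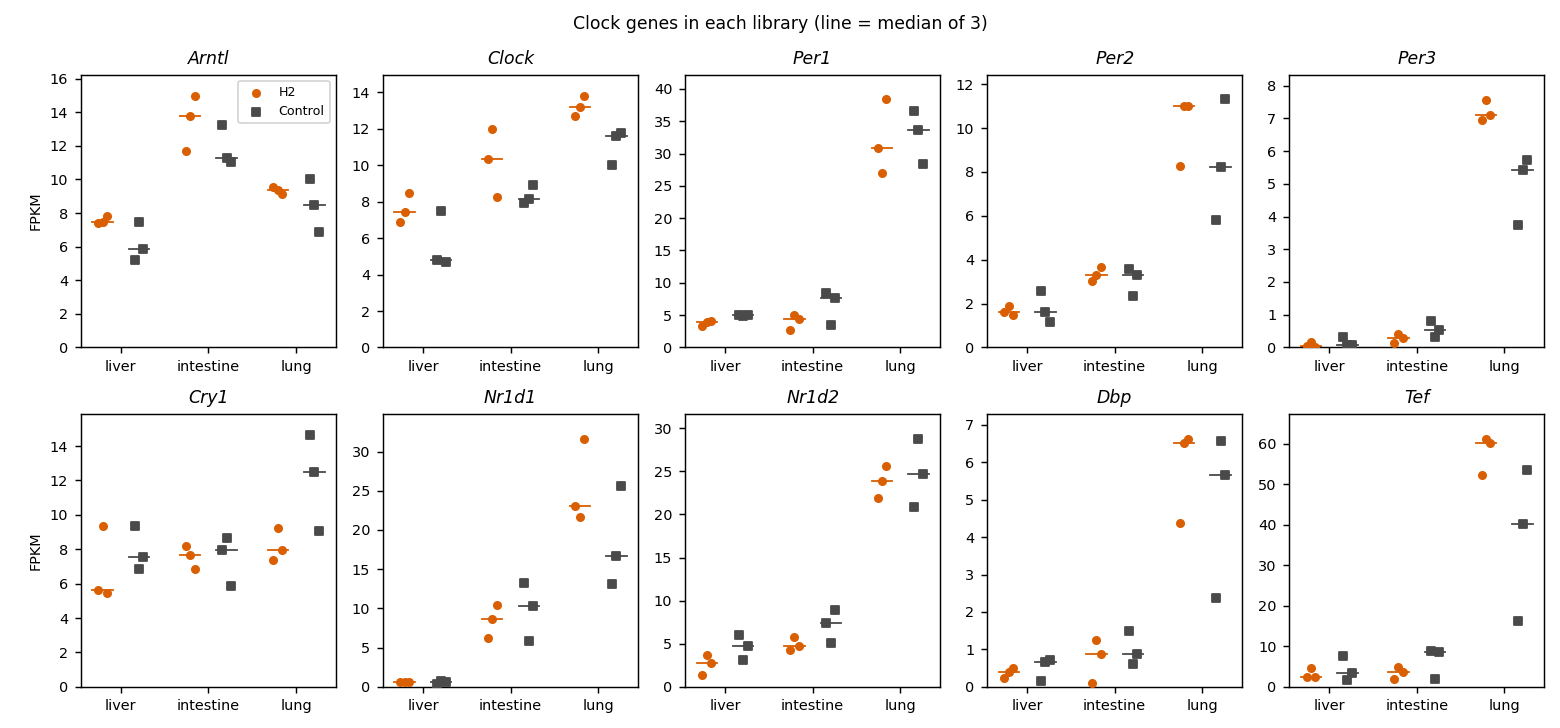
FPKM of the 10 clock genes in each library (vertical axis, 1 panel per gene), by organ, with H2 libraries to the left of control libraries in each organ and n = 3 per group. In most panels the 2 groups of an organ overlap, whereas Clock, Per1, Per2, Per3, Nr1d1, Nr1d2, Dbp and Tef are higher in every lung library than in any liver library.

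Arntl and Clock, the activating pair, averaged a little higher in H2 than in control libraries of each organ, short of the test. In the liver Arntl measured 7.39, 7.44 and 7.82 FPKM in the H2 libraries, against 5.19, 7.49 and 5.85 FPKM in the control libraries. Control liver 2 lay inside the H2 range and the other control libraries below it. The log2 change was 0.26 ± 0.14 (SE, n = 3 each, limma adjusted p = 0.311), and without control liver 2 it was 0.39 ± 0.11 and passed (adjusted p = 0.037), in a fit that called 28.2% of all tested genes. Intestinal Arntl measured 11.7, 13.8 and 14.98 FPKM in the H2 libraries, against 13.2, 11.3 and 11.03 FPKM in the control libraries, and the groups overlapped. In the lung, Arntl measured 9.53, 9.35 and 9.16 FPKM in the H2 libraries, against 10.1, 8.51 and 6.85 FPKM in the control libraries, with the H2 libraries close together inside the control range.

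Clock encodes the partner of ARNTL and a histone acetyltransferase. In the liver it measured 6.91, 7.41 and 8.47 FPKM in the H2 libraries, against 4.801, 7.505 and 4.69 FPKM in the control libraries, so that again control liver 2 was apart from the other control libraries. The log2 change was 0.39 ± 0.18 (SE, limma adjusted p = 0.269), and 0.58 ± 0.12 (adjusted p = 0.0154) without that library. The latter fit called 28.2% of all tested genes. In the lung, Clock measured 12.7, 13.2 and 13.8 FPKM in the H2 libraries, against 10.04, 11.6 and 11.8 FPKM in the control libraries. Every H2 lung library was above every control lung library, by a log2 change of 0.23 ± 0.10 (adjusted p = 0.232). In the intestine it measured 10.3, 11.96 and 8.27 FPKM in the H2 libraries, against 7.93, 8.15 and 8.93 FPKM in the control libraries, and the groups overlapped. Over the 3 organs the mean Clock change was 0.29 ± 0.09 (95% interval 0.10 to 0.48, limma adjusted p = 0.0526), the smallest p of the 10 members. It passed at a filter of mean FPKM 5 (adjusted p = 0.0485), when libraries were scaled by the median of ratios (0.0471) or quantile-normalized (0.0393). It also passed without control liver 2 (0.35, adjusted p = 0.00613), without control lung 3 (0.30, adjusted p = 0.0363) or without H2 intestine 3 (0.33, adjusted p = 0.028), when 19.6%, 21.2% and 12.1% of all tested genes passed. The mean Arntl change was 0.19 ± 0.08 (adjusted p = 0.129), and it passed without control liver 2 (0.24, adjusted p = 0.0465).

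Among the repressors, the mean change of the 3 Period genes did not have 1 sign, and none passed. Per1 responds directly to glucocorticoids and cAMP as well as to the clock. In the liver it measured 3.36, 3.95 and 4.11 FPKM in the H2 libraries, against 5.07, 4.79 and 5.05 FPKM in the control libraries. All H2 livers were below all control livers, and the control livers differed little among themselves. The log2 change was -0.32 ± 0.11 (SE, n = 3 each, 95% interval -0.58 to -0.06, limma unadjusted p = 0.0242, adjusted p = 0.192). In the intestine Per1 measured 2.76, 5.01 and 4.36 FPKM in the H2 libraries, against 8.35, 3.52 and 7.68 FPKM in the control libraries. Control intestine 2 lay within the H2 range and the other control libraries were well above it. The log2 change there was -0.53 ± 0.31 (adjusted p = 0.481). In the lung, where Per1 was highest, it measured 30.8, 27.1 and 38.4 FPKM in the H2 libraries, against 36.6, 33.6 and 28.4 FPKM in the control libraries, with overlapping groups. The mean Per1 change was -0.30 ± 0.14 (adjusted p = 0.152) and passed without control intestine 2 (-0.41, adjusted p = 0.0242). That fit called 12.9% of all tested genes.

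Per2 is a Period gene that mice need for a lasting rhythm. In the liver it measured 1.6, 1.91 and 1.498 FPKM in the H2 libraries, against 2.58, 1.605 and 1.17 FPKM in the control libraries. Intestinal Per2 measured 3.01, 3.2995 and 3.69 FPKM in the H2 libraries, against 3.595, 2.34 and 3.32 FPKM in the control libraries. In the lung Per2 measured 8.29, 10.99 and 10.99 FPKM in the H2 libraries, against 5.81, 8.25 and 11.3 FPKM in the control libraries. The groups overlapped in each organ, and the mean change was 0.11 ± 0.12 (SE, limma adjusted p = 0.58).

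Per3, the Period gene that is least needed for the rhythm, was low outside the lung. Liver Per3 measured 0.036, 0.161 and 0 FPKM in the H2 libraries, against 0.322, 0.079 and 0.084 FPKM in the control libraries, with 1 H2 library listed at 0. By transcript length and implied depth the liver values stand for 0 to 23.6 fragments a library, too few to compare the groups. The intestine gave 0.137, 0.423 and 0.296 FPKM in the H2 libraries, against 0.795, 0.318 and 0.538 FPKM in the control libraries. In the lung Per3 measured 6.96, 7.56 and 7.098 FPKM in the H2 libraries, against 3.75, 5.43 and 5.72 FPKM in the control libraries, and every H2 library was above every control library. The lung change was 0.48 ± 0.15 (SE, n = 3 each, limma unadjusted p = 0.0178, adjusted p = 0.175), and 0.57 ± 0.15 (adjusted p = 0.0415) without control lung 3, in a fit that called 24.5% of all tested genes. Outside the lung Per3 stayed below the 1 FPKM of the filter, where the added 1 sets most of its change, so its differences in change between organs are given but not read. For intestine minus lung the difference was -0.74 ± 0.22 (SE, limma adjusted p = 0.0933). It passed without control lung 3 (-0.83, adjusted p = 0.0353) and at a pseudocount of 5 (-0.37, adjusted p = 0.0463). Those 2 fits called 7.79% and 2.63% of all tested genes. Per3 lies inside Camta1 on the same strand (GENCODE vM21, mm10), and Camta1 ran between 0.568 and 1.31 FPKM in the liver, 0.764 and 2.30 FPKM in the intestine and 3.78 and 7.18 FPKM in the lung. How the authors' counting split reads between them is not given in the sources used here.

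Cry1, the cryptochrome that blocks the activating pair, averaged lower in H2 than in control lungs, short of the test. In the lung it measured 7.35, 9.21 and 7.96 FPKM in the H2 libraries, against 14.7, 12.5 and 9.07 FPKM in the control libraries. Control lung 3 lay within the H2 range and the other control libraries above it. The lung change was -0.49 ± 0.18 (SE, n = 3 each, limma unadjusted p = 0.0303, adjusted p = 0.194), and -0.67 ± 0.13 (adjusted p = 0.0205) without control lung 3. The latter fit called 24.5% of all tested genes. In the liver Cry1 measured 5.65, 9.36 and 5.44 FPKM in the H2 libraries, against 9.35, 6.85 and 7.53 FPKM in the control libraries. Intestinal Cry1 measured 8.21, 7.67 and 6.88 FPKM in the H2 libraries, against 7.95, 8.65 and 5.86 FPKM in the control libraries. The groups overlapped in both organs. The E-box in the Cry1 window shown above is also in those of Per1 and Tef, and in the lung these 3 genes gave log2 changes of -0.49, -0.04 and 0.79.

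Of the nuclear receptors that repress Arntl, Nr1d1 was low in the liver and high in the lung. In the liver it measured 0.65, 0.564 and 0.562 FPKM in the H2 libraries, against 0.379, 0.743 and 0.602 FPKM in the control libraries. The implied fragments of Nr1d1 were 12.6 to 24.1 a liver library, and the groups overlapped. In the intestine it measured 6.26, 8.62 and 10.4 FPKM in the H2 libraries, against 13.2, 5.79 and 10.3 FPKM in the control libraries. Lung Nr1d1 measured 23.1, 21.6 and 31.6 FPKM in the H2 libraries, against 13.2, 16.7 and 25.5 FPKM in the control libraries. No liver library came near the lowest intestine library, whereas the highest intestine library reached just past the lowest lung library. Its lung change was 0.47 ± 0.25 (SE, n = 3 each, limma adjusted p = 0.288), and 0.72 ± 0.19 (adjusted p = 0.041) without control lung 3, where 24.5% of all tested genes were called. Summed FPKM of 6 endothelial markers, all of them measured, was also higher in the H2 lungs, at 704, 625 and 922 in the H2 libraries against 475, 519 and 607 in the control libraries. Singly, Kdr, Emcn and Ptprb did not overlap between H2 and control lungs, while Pecam1, Cdh5 and Tek did. The sum of 5 skeletal muscle markers did not overlap either, at 6.40 to 11.8 in H2 and 17.4 to 18.2 in control lungs. The part of these cell types in the result was not tested. In bulk tissue, more or fewer cells of a type and more or less RNA per cell cannot be told apart.

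The 3′ end of Nr1d1 overlaps that of Thra, the thyroid hormone receptor alpha gene, on the opposite strand, with 1075 bases shared by the gene spans. The libraries were made with a stranded kit, but whether strand was used in counting is not given in the sources used here, and without it reads of both cannot be told apart. Thra ran between 1.07 and 3.79 FPKM in the liver, 8.94 and 17.6 FPKM in the intestine and 15.6 and 34.5 FPKM in the lung, the same order as Nr1d1.

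Nr1d2 encodes the relative of Nr1d1 that binds the same element. Liver Nr1d2 measured 1.36, 3.74 and 2.81 FPKM in the H2 libraries, against 6.05, 3.05 and 4.79 FPKM in the control libraries. Its log2 change there was -0.65 ± 0.30 (SE, limma adjusted p = 0.267), and control liver 2 lay within the H2 range. In the intestine it measured 4.21, 5.803 and 4.76 FPKM in the H2 libraries, against 7.42, 5.06 and 8.94 FPKM in the control libraries, a change of -0.44 ± 0.22 (adjusted p = 0.432), with control intestine 2 within the H2 range. In the lung it measured 21.95, 23.9 and 25.6 FPKM in the H2 libraries, against 20.8, 28.8 and 24.7 FPKM in the control libraries, with the H2 libraries inside the control range. The mean change was -0.38 ± 0.15 (adjusted p = 0.0986), and it passed without control liver 2 (-0.45, adjusted p = 0.036), when 19.6% of all tested genes passed. The mean Nr1d1 change was 0.11 ± 0.15 (adjusted p = 0.642).

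Dbp and Tef, activators of D-box genes, varied widely within groups. In the liver Dbp measured 0.236, 0.404 and 0.49 FPKM in the H2 libraries, against 0.152, 0.674 and 0.718 FPKM in the control libraries. Intestinal Dbp measured 0.0981, 1.25 and 0.876 FPKM in the H2 libraries, against 1.48, 0.603 and 0.883 FPKM in the control libraries. These stand for 3.41 to 14.8 implied fragments in the liver and 2.22 to 28.9 in the intestine, and no difference between groups was detectable at this depth. In the lung Dbp measured 4.37, 6.51 and 6.62 FPKM in the H2 libraries, against 2.37, 6.58 and 5.66 FPKM in the control libraries, a change of 0.28 ± 0.32 (SE, limma adjusted p = 0.588). Control lung 1 was low and the other control libraries lay with the H2 libraries. Dbp shares 737 bases with Sphk2 on the opposite strand, and Sphk2 ran between 3.95 and 6.48 FPKM in the liver, 6.90 and 14.6 FPKM in the intestine and 12.6 and 13.9 FPKM in the lung.

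In the liver Tef measured 2.41, 4.64 and 2.45 FPKM in the H2 libraries, against 7.599, 1.56 and 3.37 FPKM in the control libraries. Intestinal Tef measured 1.84, 4.996 and 3.55 FPKM in the H2 libraries, against 8.72, 1.99 and 8.67 FPKM in the control libraries. Lung Tef measured 52.2, 61.2 and 60.1 FPKM in the H2 libraries, against 16.3, 40.1 and 53.6 FPKM in the control libraries. Within the control mice alone it spanned 1.56 to 7.60 FPKM in the liver and 16.3 to 53.6 FPKM in the lung, wider than the H2 libraries of the same organ. The liver change was -0.18 ± 0.43 (SE, n = 3 each), that of the intestine -0.62 ± 0.48 and that of the lung 0.79 ± 0.40, with limma adjusted p values of 0.829, 0.575 and 0.264. The change in the intestine minus that in the lung was -1.41 ± 0.72 (adjusted p = 0.293).

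**Figure D2:**
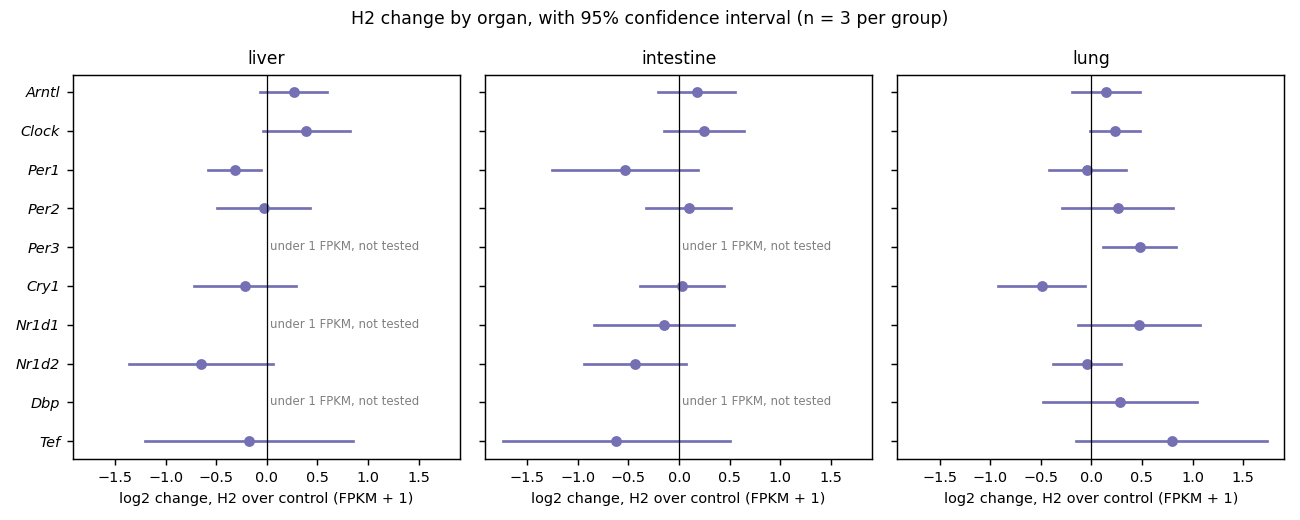
Log2 change of H2 over control (FPKM + 1) of each clock gene tested in an organ, as points with 95% intervals from limma. The intervals of Per1 in the liver and of Per3 and Cry1 in the lung leave out 0, and no gene passed the adjusted threshold. For the mean over the 3 organs, which is not drawn, the intervals of Arntl, Clock, Per1 and Nr1d2 left out 0.

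The levels of most clock genes differed between organs. As deposited, all 10 members were lower in the liver than in the lung, a direction in which 78.4% of all tested genes were called. The filter was on the mean of 18 libraries, and Per3 and Dbp passed it through the lung alone. On the scale of FPKM + 1 Nr1d1 differed most, averaging 0.583 ± 0.121 FPKM in the liver and 21.96 ± 6.504 FPKM in the lung (SD, n = 6 each), a log2 difference of -3.81 ± 0.19 (SE, limma adjusted p = 8.34e-12). Tef followed with 3.67 ± 2.19 FPKM in the liver and 47.2 ± 16.9 FPKM in the lung (-3.37 ± 0.36, adjusted p = 1.75e-07). Per3 averaged 0.114 ± 0.115 FPKM in the liver and 6.09 ± 1.41 FPKM in the lung, a difference of -2.65 ± 0.11. Without the added 1, the ratio of those means was larger for Per3 than for Nr1d1, on liver values of few fragments. Per1 differed by -2.63 ± 0.17. Nr1d2 differed by -2.52 ± 0.18, Dbp by -2.10 ± 0.22 and Per2 by -1.90 ± 0.15. The activators and Cry1 differed least, Clock by -0.81 ± 0.11, Cry1 by -0.40 ± 0.14 and Arntl by -0.34 ± 0.10. In H2 libraries alone the differences of Cry1 (-0.26, adjusted p = 0.233) and Arntl (-0.28, adjusted p = 0.0826) did not pass.

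These differences lean on the scaling. The median of all tested genes was -1.18 for liver minus lung as deposited and -0.02 after median-of-ratios scaling, which sets the typical gene equal. The split of called genes was 1455 higher (10.9%) and 10473 lower as deposited, and 5000 higher and 5224 lower after scaling. After it, 7 members were lower in the liver (40% of all genes), among them Nr1d1 at -2.86 ± 0.19, Tef at -2.13 ± 0.37, Per3 at -2.02 ± 0.12, Per1 at -1.35 ± 0.16 and Per2 at -0.80 ± 0.16. The other 3, Arntl (0.93 ± 0.10), Cry1 (0.87 ± 0.14) and Clock (0.47 ± 0.11), were higher in the liver (38.3% of all genes), the reverse of their direction as deposited. Under this scaling the 2 activators and Cry1 lay on one side and the Per genes, the REV-ERB genes and the PAR bZIP genes Dbp and Tef on the other.

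**Figure D3:**
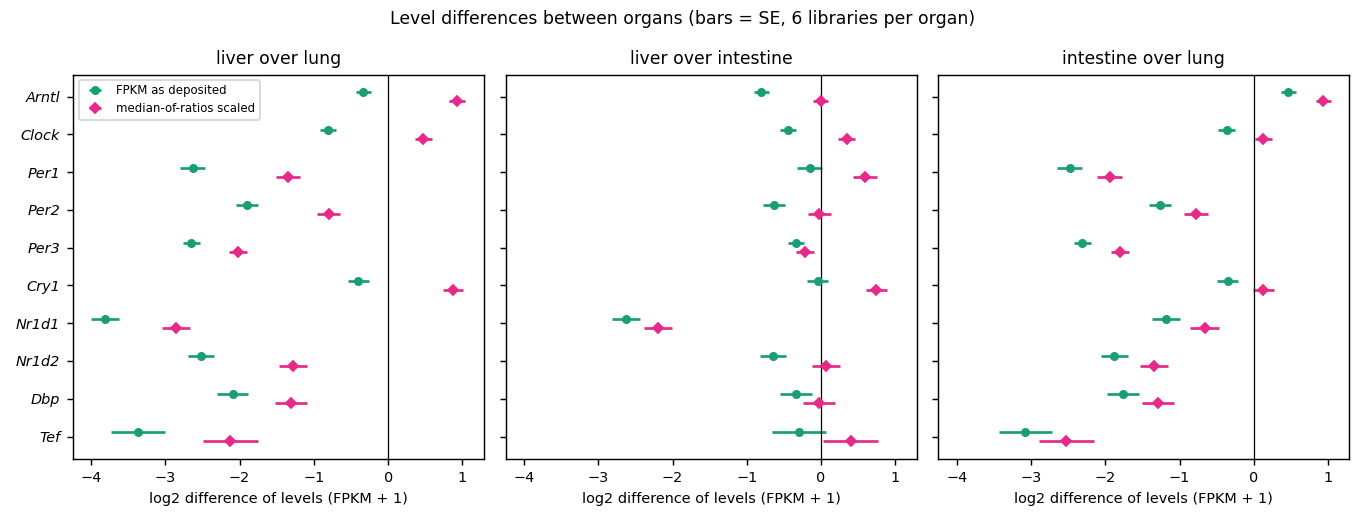
Log2 differences in level between organs (with SE) for the 10 clock genes, for FPKM as deposited and after median-of-ratios scaling. In liver minus lung, Arntl, Clock and Cry1 lie below 0 as deposited and above 0 after scaling, and the other 7 genes lie below 0 in both.

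By mean FPKM as deposited, the intestine stood between the liver and the lung for every member but Arntl. In liver minus intestine, 6 members were lower as deposited (66% of all genes), Nr1d1 by far the most at -2.63 ± 0.19 (SE, limma adjusted p = 1.56e-09). Nr1d1 averaged 9.10 ± 2.81 FPKM in the intestine (SD, n = 6). It was the 1 member still lower after scaling (-2.20 ± 0.19, 37% of all genes), while Clock (0.35 ± 0.11), Per1 (0.59 ± 0.16) and Cry1 (0.75 ± 0.14) were then higher in the liver (35.1%). Per1 (-0.15 ± 0.17), Cry1 (-0.05 ± 0.14), Dbp (-0.34 ± 0.22) and Tef (-0.30 ± 0.36) did not pass as deposited. Nr1d2 (-0.65 ± 0.18 as deposited) did not pass in control libraries alone (adjusted p = 0.0651), nor Per3 (-0.34 ± 0.11) in H2 libraries alone (0.131) or at a pseudocount of 5 (0.113). The medians of all tested genes were -0.66 as deposited and -0.03 after scaling. The Dbp difference passed without H2 intestine 1 (-0.49, adjusted p = 0.0391) and the Per1 difference without control intestine 2 (-0.32, adjusted p = 0.0298). Those fits called 80% and 80.1% of all tested genes in either direction.

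In intestine minus lung, Arntl was the 1 member that was higher (0.46 ± 0.10, SE, limma adjusted p = 0.000526, 22.7% of all genes), at 12.7 ± 1.59 FPKM in the intestine and 8.91 ± 1.13 FPKM in the lung (SD, n = 6 each). The other 9 were lower (55.7%), on the FPKM + 1 scale by -3.08 ± 0.36 for Tef and -2.48 ± 0.17 for Per1 at one end and by -0.37 ± 0.11 for Clock and -0.35 ± 0.14 for Cry1 at the other. Among the 9, Per3 and Dbp passed the filter through the lung alone, with intestinal means of 0.418 and 0.865 FPKM. Their direction was thus favoured by the filter. After scaling Arntl was again higher (0.93 ± 0.10, 39.3% of all genes) and 7 members lower (36.2%), while Clock (0.12 ± 0.11) and Cry1 (0.13 ± 0.14) did not pass. As deposited, the Cry1 difference was lost in 5 of the fits that left out 1 library, at log2 differences of -0.28 to -0.34 and adjusted p of 0.0614 to 0.0906. These were the fits without H2 intestine 3, control intestine 3, H2 lung 2, control lung 1 or control lung 2. In H2 libraries alone it was -0.09 (adjusted p = 0.695).

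Ranks within a library need no scaling between libraries and put each gene among the 13362 genes tested. A rank also depends on the other genes, of which 78.4% were called lower in the liver than in the lung as deposited. A gene that differs little between these organs can thus rank higher in the liver. Arntl did so, with means of 6.86 FPKM in livers and 8.91 FPKM in lungs (n = 6 each). The median percentile of Nr1d1 was 20.5 in livers, 56.4 in intestines and 71.3 in lungs, that of Tef 44.2, 37.5 and 87.2, and that of Per1 53.8, 40 and 79.1. Arntl ran the other way, at 65.3 in livers, 62.6 in intestines and 44.4 in lungs, and Cry1 did so at 64.2, 51.4 and 44.4. Clock stood at 64.6, 54 and 53.6.

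Ratios to Arntl within a library also need no scaling between libraries, and in a running clock the ratio of Nr1d1 or Dbp to Arntl swings widely over the day. They are given as values without a test. The log2 ratio of Nr1d1 to Arntl lay between -3.80 and -3.28 in the 6 livers, between -0.96 and -0.00136 in the 6 intestines and between 0.39 and 1.90 in the 6 lungs. The 3 organs did not overlap. The ratio of Tef to Arntl lay between -2.26 and 0.55 in the liver, between -2.67 and -0.35 in the intestine and between 0.70 and 2.97 in the lung, and that of Dbp between -5.09 and -3.03, between -6.90 and -3.16 and between -2.08 and -0.28. For these 2 the lung stood apart, and the liver and the intestine overlapped. The ratio of Cry1 to Arntl overlapped between the liver (-0.52 to 0.85) and the lung (-0.37 to 0.55).

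Between treatments, most of these ratios overlapped. The log2 ratio of Per1 to Arntl in the liver lay between -1.14 and -0.91 in the H2 libraries and between -0.64 and -0.03 in the control libraries. In the lung the ratio of Cry1 to Arntl lay between -0.37 and -0.02 in H2 libraries and between 0.41 and 0.55 in control libraries, control lung 3 included. In the intestine the ratio of Nr1d2 to Arntl lay between -1.65 and -1.25 in H2 libraries and between -1.15 and -0.30 in control libraries. In these 3 cases the groups did not overlap, which is 1 of the 9 ratios in each organ. The 9 include members too low to be tested there, Per3, Nr1d1 and Dbp in the liver and Per3 and Dbp in the intestine. The shares that follow leave out such low genes. Over all tested genes of an organ, the ratio to Arntl did not overlap for 28.6% of those in liver, 19.1% of those in intestine and 29.3% of those in lung. For Nr1d1 in the lung they did, at 1.21 to 1.79 in H2 libraries and 0.39 to 1.90 in control libraries.

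**Figure D4:**
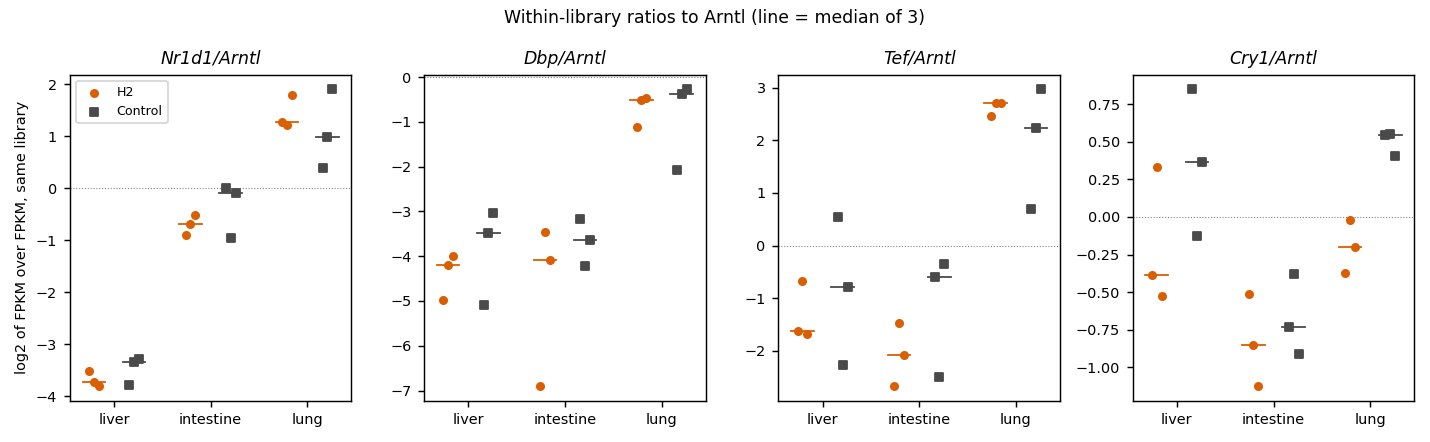
Log2 ratio of Nr1d1, Dbp, Tef and Cry1 to Arntl within each library, by organ, with H2 to the left of control and n = 3 per group. The Nr1d1 ratio separates the 3 organs, from -3.80 to -3.28 in the liver up to 0.39 to 1.90 in the lung, and the Cry1 ratio separates H2 from control in the lung.

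Further genes tied to the clock were read in the mean change over the organs. Some passed when 1 library was left out, in fits that called other shares of all tested genes than the 9.62% with all libraries. Without control liver 2 the share was 19.6%, without control intestine 2 12.9% and without control lung 3 21.2%. It was 12.1% without H2 intestine 3 and 8.43% without H2 intestine 1. Of 11 further core genes 8 were tested, and 1 was lower and 0 higher, where 5.23% of all tested genes were lower and 4.39% higher. At an unadjusted limma p under 0.05 they numbered 4 of 8 (30.7% of all tested genes). The called gene was Nfil3, which encodes the repressor that competes with Dbp and Tef for D-box elements, at -0.64 ± 0.16 (SE, limma adjusted p = 0.0285). In the intestine Nfil3 measured 11.7, 16.02 and 13.2 FPKM in the H2 libraries, against 28.4, 28.8 and 21.6 FPKM in the control libraries. Lung Nfil3 measured 15.1, 14.997 and 13.1 FPKM in the H2 libraries, against 51.6, 27.9 and 16.7 FPKM in the control libraries. The groups did not overlap in either organ, while in the liver they did, at 26.997, 34.8 and 35.6 FPKM in the H2 libraries, against 34.02, 38.2 and 29.2 FPKM in the control libraries. The Nfil3 call was lost in 9 fits that left out 1 library, without H2 liver 1 or 3, control liver 1 or 3, control intestine 1, any H2 lung library, or control lung 2, at adjusted p of 0.0508 to 0.0588.

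Bhlhe40 (Dec1), an E-box repressor, gave -0.74 ± 0.27 (SE, limma adjusted p = 0.0807). Lung Bhlhe40 measured 16.4, 20.4 and 18.7 FPKM in the H2 libraries, against 88.5, 59.9 and 22.7 FPKM in the control libraries, with 2 control libraries far above the third and no overlap with the H2 libraries. In the liver and the intestine the groups overlapped, with changes of -0.83 ± 0.40 (adjusted p = 0.278) and -0.02 ± 0.36 (adjusted p = 0.981). Without control lung 3 its mean change was -0.93 and passed (adjusted p = 0.0128), as it did without control liver 2 (0.0291) or control intestine 2 (0.0362). Hlf, a relative of Dbp and Tef, gave 0.28 ± 0.12 (adjusted p = 0.119) and passed without control lung 3 (0.35, adjusted p = 0.0257). Cry2, the second cryptochrome, gave -0.44 ± 0.20 (adjusted p = 0.152) and passed without control intestine 2 (-0.62, adjusted p = 0.0181).

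Of 14 genes whose products modify or degrade clock proteins, 13 were tested and 0 were called by limma, with 3 at an unadjusted p under 0.05 (9.62% and 30.7% of all tested genes). The smallest p belonged to Csnk1d, the kinase that marks PER for decay, at -0.29 ± 0.09 (SE, adjusted p = 0.0601), which passed without control lung 3 (-0.35, adjusted p = 0.0117), control liver 2 (0.0443) or control intestine 2 (0.0365). Timeless gave -0.35 ± 0.12 (adjusted p = 0.0651), Nono 0.18 ± 0.07 (adjusted p = 0.102) and Csnk1e -0.23 ± 0.11 (adjusted p = 0.17). Timeless passed without control lung 3 (-0.42, adjusted p = 0.0109) or H2 intestine 3 (-0.39, adjusted p = 0.0414), Nono without H2 intestine 3 (0.21, adjusted p = 0.0413) and Csnk1e without control intestine 2 (-0.31, adjusted p = 0.0433).

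Of 15 output genes 14 were tested, and 2 were lower and 0 higher (5.23% and 4.39% of all tested genes). At an unadjusted limma p under 0.05 they numbered 6 of 14 (30.7% of all tested genes). Tspan4, a tetraspanin, fell by 0.62 ± 0.12 on the log2 scale (SE, limma adjusted p = 0.0129), and intestinal Tspan4 measured 8.26, 9.65 and 12.2 FPKM in the H2 libraries, against 18.6, 15.8 and 16.8 FPKM in the control libraries, without overlap. Lung Tspan4 also did not overlap, at 38.1, 43.8 and 42.03 FPKM in the H2 libraries, against 82.9, 75.01 and 52.5 FPKM in the control libraries. In the liver the groups overlapped, at 22.03, 19.3 and 21.99 FPKM in the H2 libraries, against 33.8, 19.005 and 35.3 FPKM in the control libraries. Lpl, lipoprotein lipase, fell by 0.48 ± 0.13 (adjusted p = 0.0387). Lung Lpl measured 143, 165 and 148 FPKM in the H2 libraries, against 254, 246 and 199 FPKM in the control libraries, without overlap. Intestinal Lpl measured 1.56, 1.43 and 3.396 FPKM in the H2 libraries, against 5.68, 3.59 and 3.88 FPKM in the control libraries, again without overlap. In the liver, where Lpl measured 4.64, 6.33 and 4.11 FPKM in the H2 libraries, against 3.998, 4.57 and 6.72 FPKM in the control libraries, the groups overlapped and the change was -0.00860 ± 0.21 (adjusted p = 0.986). Fat cells are rich in Lpl, and the summed FPKM of 4 fat-cell markers was 37.4, 35.8 and 44.9 in H2 intestines against 84.7, 53.8 and 50.5 in control intestines, most of it Cidec. All 4 markers were measured, and in the intestine Lep was listed at 0 in H2 libraries 1 and 2 and Plin1 in H2 library 2. In the lung the sum was 14.8 to 24.8 in H2 libraries and 8.37 to 72.6 in control libraries, and in the liver 2.79 to 4.55 and 4.35 to 16.1. The part of fat cells in the Lpl result was not tested. The Lpl call was lost with no filter (adjusted p = 0.0527), after quantile normalization (0.0578), and in 13 of the 18 fits without 1 library (0.0542 to 0.0828), all but those without H2 liver 2, control liver 2, H2 intestine 3, control intestine 2 or control lung 3. Nr1i3, the xenobiotic receptor CAR and a target of the D-box activators in the liver, gave 0.82 ± 0.28 (adjusted p = 0.0708). Liver Nr1i3 measured 22.2, 28.6 and 26.2 FPKM in the H2 libraries, against 4.52, 12.2 and 1.48 FPKM in the control libraries, without overlap, and its change there was 2.23 ± 0.54 (adjusted p = 0.167). Its intestinal change was 0.18 ± 0.47 (adjusted p = 0.884), and in the lung it was below the filter. Its mean change passed at a pseudocount of 5 (0.56, adjusted p = 0.0357) and without control liver 2 (1.02, adjusted p = 0.00879). Nampt, the enzyme of NAD salvage, gave -0.60 ± 0.27 (adjusted p = 0.142) and passed without control liver 2 (-0.84, adjusted p = 0.00487).

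Glucocorticoids and body temperature are, beside feeding, among the cues that set clocks outside the brain, and genes that answer to them were read beside the clock genes. All 12 listed glucocorticoid targets were tested, and 3 were lower and 0 higher (5.23% and 4.39% of all tested genes). At an unadjusted limma p under 0.05 they numbered 7 of 12 (30.7% of all tested genes). The 3 called were the metallothioneins Mt2 (-1.52 ± 0.26, SE, limma adjusted p = 0.00893) and Mt1 (-1.42 ± 0.24, adjusted p = 0.00893), and Lcn2, an iron-binding protein of acute inflammation (-0.90 ± 0.21, adjusted p = 0.0234). All 3 also answer to other signals, metals or cytokines among them. The Lcn2 call was lost without control liver 3 (-0.89, adjusted p = 0.0515). Tsc22d3 (GILZ), a glucocorticoid-induced leucine zipper gene, gave 0.62 ± 0.22 (adjusted p = 0.0741). Liver Tsc22d3 measured 20.5, 18.9 and 21.2 FPKM in the H2 libraries, against 7.59, 17.7 and 5.695 FPKM in the control libraries, and no H2 library was below a control library. In the intestine Tsc22d3 measured 22.9, 63.6 and 50.01 FPKM in the H2 libraries, against 41.8, 20.8 and 33.5 FPKM in the control libraries. Lung Tsc22d3 measured 275, 250.3 and 314 FPKM in the H2 libraries, against 179, 190.5 and 278 FPKM in the control libraries. The groups overlapped in both of these organs. Its mean change passed without control liver 2 (0.77, adjusted p = 0.0127), H2 intestine 1 (0.76, adjusted p = 0.0319) or control lung 3 (0.69, adjusted p = 0.0418). Fkbp5, a glucocorticoid-induced cochaperone of the receptor, had the other sign at -0.36 ± 0.13 (adjusted p = 0.0862) and is named after its values were seen. Lung Fkbp5 measured 39.9, 52.4 and 47.3 FPKM in the H2 libraries, against 76.4, 85.6 and 61.7 FPKM in the control libraries, with every H2 library below every control library. Intestinal Fkbp5 measured 27.02, 57.6 and 41.9 FPKM in the H2 libraries, against 66.8, 56.9 and 79.8 FPKM in the control libraries. In the liver Fkbp5 measured 28.4, 39.4 and 31.6 FPKM in the H2 libraries, against 27.2, 29.7 and 22.6 FPKM in the control libraries. The groups overlapped in the intestine and the liver, and the H2 mean was lower in the intestine and higher in the liver.

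All 9 listed temperature-response genes were tested and limma called 0, with 3 at an unadjusted p under 0.05, where 9.62% of all tested genes were called and 30.7% were under that p. These were Cirbp (-1.22 ± 0.39, SE, adjusted p = 0.0583) and Rbm3 (-1.04 ± 0.34, adjusted p = 0.0636), RNA-binding proteins that are made in the cold, and the small heat shock gene Hspb1 (-0.66 ± 0.24, adjusted p = 0.0814). Dnajb1, a heat-induced chaperone, gave 0.23 ± 0.11 (adjusted p = 0.181). In the liver Cirbp measured 5.29, 8.69 and 5.42 FPKM in the H2 libraries, against 25.04, 4.805 and 35.5 FPKM in the control libraries. Intestinal Cirbp measured 7.497, 14.02 and 9.66 FPKM in the H2 libraries, against 45.01, 9.38 and 42.8 FPKM in the control libraries. Lung Cirbp measured 42.4, 48.2 and 29.6 FPKM in the H2 libraries, against 136, 130.2 and 33.2 FPKM in the control libraries. In each organ 2 control libraries were far above the H2 libraries and the third lay with them, namely control liver 2, control intestine 2 and control lung 3. Rbm3 showed this in 2 organs. Liver Rbm3 measured 87.9, 97.5 and 68.3 FPKM in the H2 libraries, against 321, 95.6 and 389 FPKM in the control libraries. Lung Rbm3 measured 181, 261 and 147 FPKM in the H2 libraries, against 819.6, 731 and 205 FPKM in the control libraries. Whether these libraries come from 1 mouse or share a cage is not in the labels. The Cirbp change was -1.49 (adjusted p = 0.00836) without control liver 2, -1.46 (0.0235) without control intestine 2 and -1.44 (0.0143) without control lung 3, and Rbm3 also passed in each of these fits (adjusted p = 0.0134, 0.0361 and 0.0121). Hspb1 passed without H2 intestine 3 (-0.84, adjusted p = 0.0197).

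**Figure D5:**
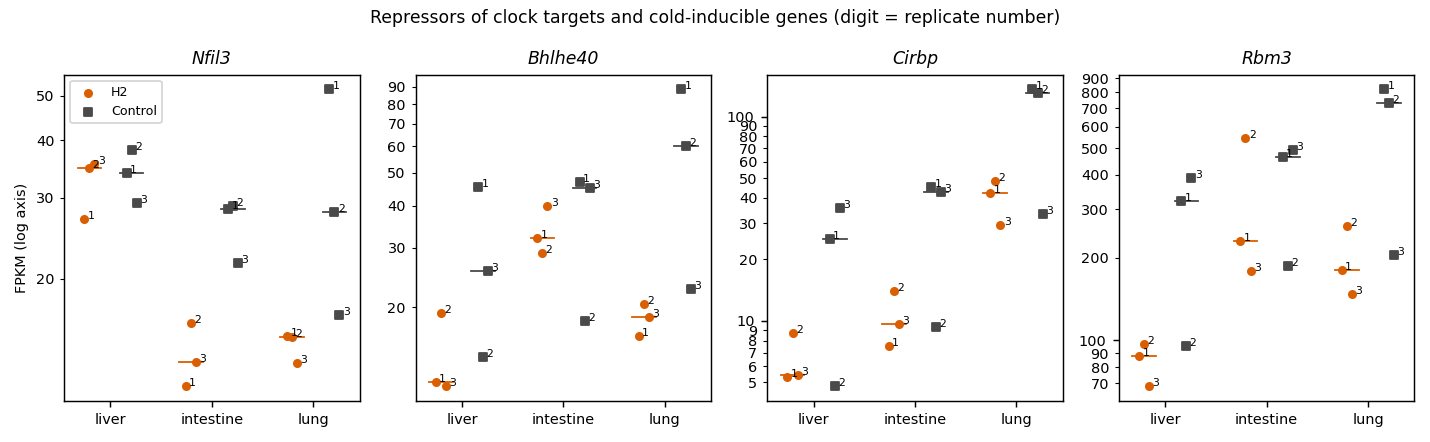
FPKM (log axis) of Nfil3, Bhlhe40, Cirbp and Rbm3 in each library, by organ, with H2 to the left of control and digits giving the replicate number. For Cirbp, control liver 2, control intestine 2 and control lung 3 lie near the H2 libraries of their organ, below the other control libraries.

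The genes most like a clock gene across the 18 libraries, after each organ's mean was subtracted, were sought among 9209 genes with a mean of at least 1 FPKM in every organ, and are given as a description. Members, predicted genes and small RNA genes were left out of the lists, so no member could appear in them. Libraries of a treatment share its effect and its depth, which these correlations include. Nr1d1 was most like Tie1, an endothelial receptor (Pearson r = 0.871), then Plscr3 and Prkd2 (0.854 each), Itpripl2 (0.851) and Ston1 (0.826). For Arntl the list was Fchsd2 (0.817), Slc38a10 (0.807), Ppp1r10 (0.771), Peli1 (0.769) and Megf9 (0.76). For Dbp it was Ptprg (0.778), Tlk1 (0.768), Gnaq (0.755), Lrp5 (0.743) and Drosha (0.735). None of the further clock genes listed here was among the 5 most like genes of Nr1d1, Dbp or Arntl. Those below 1 FPKM in an organ, such as Hlf in the intestine, were not searched, so their absence says nothing.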

How the data were processed

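Per the labels' protocols, RNA was purified with the miRNeasy Micro Kit and libraries were made with a TruSeq stranded mRNA kit. The deposited values are FPKM made by the authors, 1 column per library. Named in the submitters' processing notes are the mouse build mm10, Cufflinks 2.2.1, SAMtools 0.1.19, Bowtie2 2.2.3 and TopHat2 2.0.13. The annotation and the options are not given in the sources used here. A repeat of control lung 3 stands as 1 further column in another library's file and was not used. Groups follow the sample titles. The description fields number the gas differently in H2 replicates 2 and 3, which was read as a numbering error.

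Moderated two-sided tests were run in limma 3.58.1 (R 4.3.3, empirical Bayes with trend) on log2(FPKM + 1), for genes whose mean reached 1 FPKM in the libraries fitted. Each organ was fitted alone. The mean change, its differences between organs and the levels used all 18 libraries with 1 mean per group, which counts organs as independent. The Benjamini-Hochberg adjustment covered every gene tested, and an adjusted p under 0.05 was called. P values measure the spread between libraries, which may be technical. The fits were run on simulated data with independent libraries and planted changes of known size. Those data held no organs sharing a mouse and no deviant library, so they cannot show how either affects the calls.

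Files of FPKM hold no counts, so depth was implied from FPKM times transcript length near 1 fragment over 3076 genes with 1 transcript, and it gives no interval for single values. Positions and overlaps come from GENCODE vM21 and promoters from RefSeq. The members and the gene lists were chosen with earlier results of these data known. All members are named. Of each further list, the called genes are named, and otherwise up to 4 with the smallest p in the mean change. Alternatives were a pseudocount of 0.1 or 5, a filter at 5 FPKM or none, quantile normalization, median-of-ratios scaling, no trend, a replicate block, 1 fit of all 18 libraries for the organs, levels from 1 treatment alone, and each library left out.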

Additional observations from a re-analysis of the deposited data

How the results depend on the processing

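Depth is unknown beyond an implied estimate, and 1 library per group could decide a call. Counts of called genes moved with the fit. In the liver (2 genes) the count was 0 at a pseudocount of 0.1, with no filter, at a mean FPKM of 5 and with a replicate block, 279 with all 18 libraries in 1 fit, and 0 to 2834 without 1 library. In the intestine (1 gene) it was 3 with the block, 225 in the joint fit and 2 to 28 without 1 library. In the lung (1 gene) it was 2 with no filter, 535 in the joint fit and 1 to 3295 without 1 library. The mean change (1285 genes) gave 680 with the block and 312 to 2814 without 1 library. The differences in change gave, for liver minus lung (32), 15 and 139 at pseudocounts of 0.1 and 5, 120 with no filter, 2 at a mean FPKM of 5, 7 with the block and 2 to 588 without 1 library. For liver minus intestine (29) they gave 15 and 61, 61 with no filter, 7 at a mean FPKM of 5, 52 after median-of-ratios scaling and 10 to 779. For intestine minus lung (166) they gave 29 and 351, 402 with no filter, 38 at a mean FPKM of 5, 44 under either scaling, by the median of ratios or by quantiles, 86 with the block and 18 to 1035. In the cases above the cause was not tested.

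Whether replicate numbers pair the samples is not in the labels, and correlations of the deviations from the group means did not settle it. H2 and control libraries of an organ correlated at -0.112 to 0.332 with the same number and at -0.291 to 0.249 with different numbers. Libraries of 2 organs of a treatment correlated at -0.182 to 0.212 with the same number and at -0.237 to 0.266 with different numbers. Between control livers and control intestines these ranges did not overlap, at 0.0978 to 0.212 with the same number and -0.172 to 0.000888 with different numbers. The highest values between organs were 0.266 for control liver 2 with control lung 3 and 0.246 for control intestine 2 with control lung 3. Next came control liver 2 with control intestine 2, at 0.212. These are the control libraries in which Cirbp lay with the H2 libraries. Whether they share a mouse was not tested. For H2 changes the replicate block joined H2 and control libraries of an organ with the same number. For levels it joined the organs of a treatment with the same number. It changed no call of a clock gene, and of the other genes named it ended the call of Lpl (limma adjusted p = 0.0741). No fit of the mean change joined organs that may share a mouse, so what such sharing does to its calls was not tested.

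Among clock genes, these log2 changes took the other sign. After quantile normalization they were 0.014 for Nr1d2 and 0.046 for Per1 in the lung, and -0.032 for Per3 and 0.10 for Tef in the mean. Tef in the mean was also 0.065 at a pseudocount of 5 and 0.0097 after median-of-ratios scaling, Dbp 0.018 at a pseudocount of 5 and Per3 -0.29 at a pseudocount of 0.1. For levels, median-of-ratios scaling and then quantile normalization gave, in liver minus lung, 0.93 and 0.997 for Arntl, 0.47 and 0.46 for Clock, and 0.87 and 0.91 for Cry1. In liver minus intestine they gave 0.35 and 0.35 for Clock, 0.75 and 0.71 for Cry1 (0.075 in control libraries alone), 0.064 and 0.13 for Nr1d2, 0.59 and 0.61 for Per1 and 0.40 and 0.47 for Tef, and quantile normalization alone turned Arntl (0.014), Dbp (0.28) and Per2 (0.15). In intestine minus lung they gave 0.12 and 0.11 for Clock and 0.13 and 0.20 for Cry1. Without 1 library the changes with a turned sign ran from -0.20 to 0.17 for Per2 and -0.60 to 0.27 for Tef in the liver. In the intestine they ran from -0.12 to 0.13 for Cry1, -0.45 to 0.084 for Nr1d1 and -0.043 to 0.19 for Per2. In the lung they ran from -0.074 to 0.51 for Dbp, -0.16 to 0.066 for Nr1d2 and -0.17 to 0.071 for Per1. In the mean they ran from -0.14 to 0.079 for Dbp, -0.022 to 0.067 for Per3 and -0.19 to 0.15 for Tef, and for the level of Cry1 in liver minus intestine from -0.16 to 0.015.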
